A study of Mus musculus with 2 samples.

Results

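The cells described here are lymphocytes of mouse pancreatic tumours that carried either T cell receptor transcripts together with Cd8 transcripts, or transcripts of natural killer (NK) receptors. They were selected by transcript counts alone. A barcode was taken when it held at least 1000 unique molecular identifiers (UMIs, counted RNA molecules), at least 500 genes and at most 20% of its UMIs from mitochondrial genes, and when it passed 1 of 2 criteria. The T arm required a sum of at least 2 UMIs over Cd3e, Cd3d, Cd3g, Trac and Trbc2 with at least 1 UMI of Cd8a or Cd8b1. The NK arm required a sum of at least 2 UMIs over Ncr1, Klrb1c and Klre1. Cells with any UMI of Cd4, Trdc, Il17a, Cd79a or C1qa, C1qb and C1qc, or with 3% or more of their UMIs from S100a8 and S100a9, were left out. Of 36662 cells that passed the depth and mitochondrial limits, 295 met the rule. These were 28 of 9872 cells in the vehicle library and 267 of 26790 cells in the takinib library.

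The study sequenced dissociated tumours of 6 week old KPPC mice, a genetic model of pancreatic cancer. 1 library came from vehicle and 1 from takinib, an inhibitor of the kinase TAK1, at 50 mg/kg, with treatment lasting 14 days. The labels do not spell out the KPPC alleles, the promoter that drives them, or how many mice gave each library, and both groups carry the same model. With 1 library per group there is no test of a treatment difference: drug, mouse and library cannot be told apart, and the intervals printed (95%) reflect the counting of UMIs or cells and nothing else.

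CD8 T cells recognise peptides on MHC class I and, once activated, kill target cells with granzymes delivered through perforin pores. Before activation they are kept in a resting state by factors such as Tcf7 and Lef1, and enter lymph nodes with the help of the chemokine receptor Ccr7. NK cells kill with the same granules but read activating and inhibitory surface receptors, among them the Ly49 family (Klra genes), in place of a rearranged T cell receptor. TAK1 (Map3k7) relays antigen receptor and cytokine signals to the IKK kinases, NF-kB and the MAP kinases that induce AP-1.

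The 2 libraries differed in ways that bear on these cells. The cells held 74792 UMIs in vehicle and 709388 in takinib, with medians of 1495 and 2037 UMIs per cell. In vehicle the 4 deepest cells gave 45.7% of all UMIs, against 9.14% in takinib, so the summed vehicle profile rests on few cells. The median mitochondrial share was 12.8% in vehicle and 2.92% in takinib. S100a8 or S100a9 UMIs, which mark neutrophils, were found in 3 of 28 vehicle cells and 259 of 267 takinib cells, and in 4798 of 4874 takinib macrophages picked by C1q genes. Vehicle cells came from both sexes (among the gated cells, 3 held Xist without Y-linked transcripts, 3 the reverse and 3 both), while no takinib cell held a Y-linked UMI. Barcode sequences shared by the 2 libraries numbered 400 among all cells and 0 among the 295.

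The lymphocyte identity rested on few UMIs in part of the cells, and in takinib the cytotoxic label held mainly for the NK arm. In the T arm, 7 of 24 vehicle and 56 of 248 takinib cells held only the required 2 T cell receptor UMIs. Some of these were deep, such as vehicle cells of 6206 and 9363 UMIs and takinib cells of 17206 and 17732 UMIs. Markers named for these cells beyond those in the rule were Nkg7, a granule membrane protein, and Gzmb, granzyme B. Median depth in the takinib library was 2042 UMIs in the T arm, 1763 in the NK arm and 6799.5 in macrophages. In that library Nkg7 was found in 130 of 248 T arm cells and 17 of 19 NK arm cells, against 3 of 41 CD4 T cells selected by Cd4 and 0.431% of macrophages. Gzmb was found in 7 of 248 T arm cells and 9 of 19 NK arm cells. In vehicle Nkg7 was found in 13 of 24 T arm cells and 3 of 4 NK arm cells, and Gzmb in 2 and 0 cells. A UMI of any granzyme (Gzma, Gzmb, Gzmc, Gzmk, Gzmm) or of Prf1, perforin, was found in 19 of 248 takinib T arm cells (7.66%, 4.68 to 11.7%), in 14 of 19 NK arm cells (73.7%, 48.8 to 90.9%) and in 0.513% of macrophages. In the vehicle T arm such a UMI was found in 5 of 24 cells (20.8%, 7.13 to 42.2%), a higher share with a wide interval. The name CD8 T cells, without the word cytotoxic, was drawn from the takinib values. It is used here for the T arm of both libraries. Of other lymphocyte markers, Foxp3, Ms4a1, Pax5 and Il23r had no UMI in either library, but others on the same lists did. UMIs were found in takinib for 6 of 8 CD4 and regulatory T markers (40 cells), 5 of 8 B cell markers (110 cells, mostly Ighm and Igkc) and 9 of 15 gamma-delta and innate lymphoid markers (174 cells, mostly Il7r, which CD8 T cells share). In vehicle the counts were 2, 5 and 4 markers, in 4, 16 and 12 cells.

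**Figure D1:**
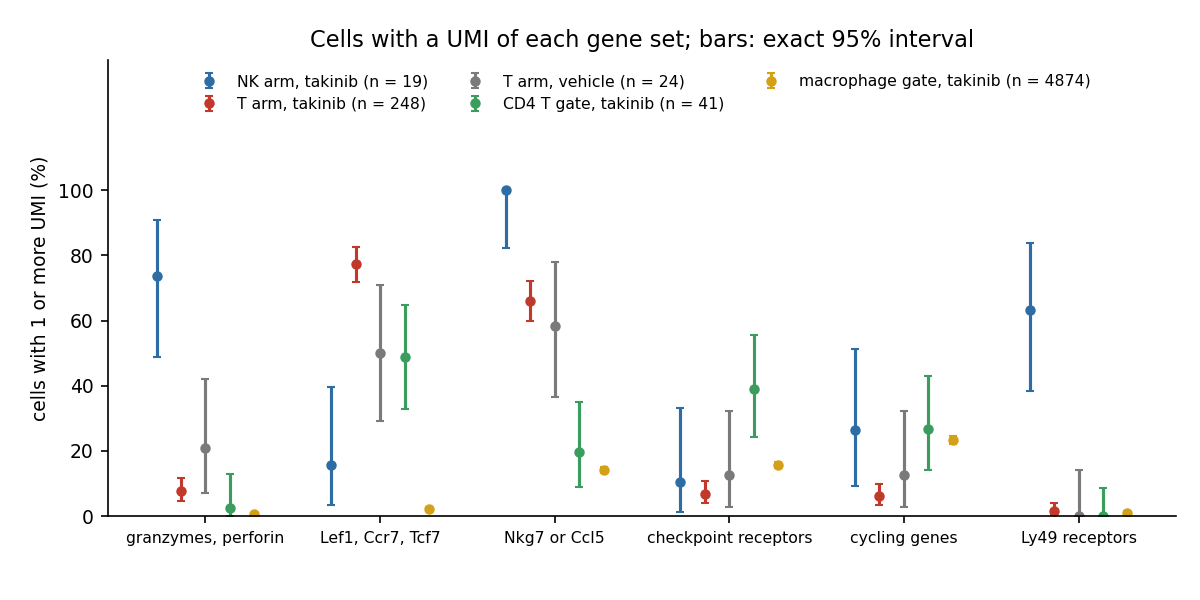
Percentage of cells with 1 or more UMI of each gene set in the NK arm, T arm, CD4 T gate and macrophage gate, with exact 95% binomial intervals (counting error only); cell numbers are in the key. Granzymes with perforin and Ly49 receptors were found mostly in the takinib NK arm (14 and 12 of 19 cells), and the Lef1, Ccr7 and Tcf7 set mostly in the takinib T arm (192 of 248 cells).

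How common the cells were depended on the denominator and the mitochondrial limit, but in each case given here the takinib share was the higher one. They made up 0.284% of vehicle cells (0.189 to 0.410%) and 0.997% of takinib cells (0.881 to 1.12%), a ratio of 3.51 (2.38 to 5.39), or 1.81 on the log2 scale. With a mitochondrial limit of 10%, which left 7 vehicle and 263 takinib cells, the log2 ratio was 3.09. The takinib library was rich in neutrophils. With cells at 3% or more S100a8 and S100a9 left out of the denominator, the shares were 0.288% and 1.88%, a ratio of 6.53 (4.42 to 10.0). Among cells that passed the same exclusions and held at least 2 T or 2 NK UMIs, 28 of 165 vehicle cells (16.97%, 11.6 to 23.6%) and 267 of 547 takinib cells (48.8%, 44.5 to 53.1%) met the rule. As a share of all cells, CD4 T cells went the other way, with 26 in vehicle (0.263%) and 41 in takinib (0.153%). That ratio was 0.581 (0.347 to 0.989). It depended on the denominator. With cells at 3% or more S100a8 and S100a9 left out, the 26 and 41 cells were set against 9738 and 14212 cells. With that denominator the takinib share of CD4 T cells was not the lower one. There were 1.08 gated cells per CD4 T cell in vehicle and 6.51 in takinib.

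By arm, the T arm held 24 vehicle cells (0.243%) and 248 takinib cells (0.926%), a ratio of 3.81 (2.50 to 6.06). The NK arm held 4 vehicle cells (0.0405%) and 19 takinib cells (0.0709%), and its ratio of 1.75 had an interval from 0.582 to 7.07 that includes equal shares. Whether the 2 ratios differ was not tested. NK arm cells were 14.3% of the gated cells in vehicle (4.03 to 32.7%) and 7.12% in takinib (4.34 to 10.9%), which was not distinguishable at these counts.

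The exclusions removed many candidates in both libraries. The inclusion genes alone were met by 60 vehicle and 572 takinib cells, and that ratio of shares was also 3.51 (2.69 to 4.66). C1q transcripts, which mark macrophages, removed 29 of the 57 vehicle cells left at that step (50.9%) and 190 of 516 takinib cells (36.8%). The S100a8 and S100a9 limit removed 0 of 28 vehicle cells and 59 of 326 takinib cells. Just outside the T arm limits, 137 vehicle and 280 takinib cells had enough T cell receptor UMIs but no Cd8 UMI. Just inside them, 11 and 85 cells held exactly 1 Cd8 UMI.

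**Figure D2:**
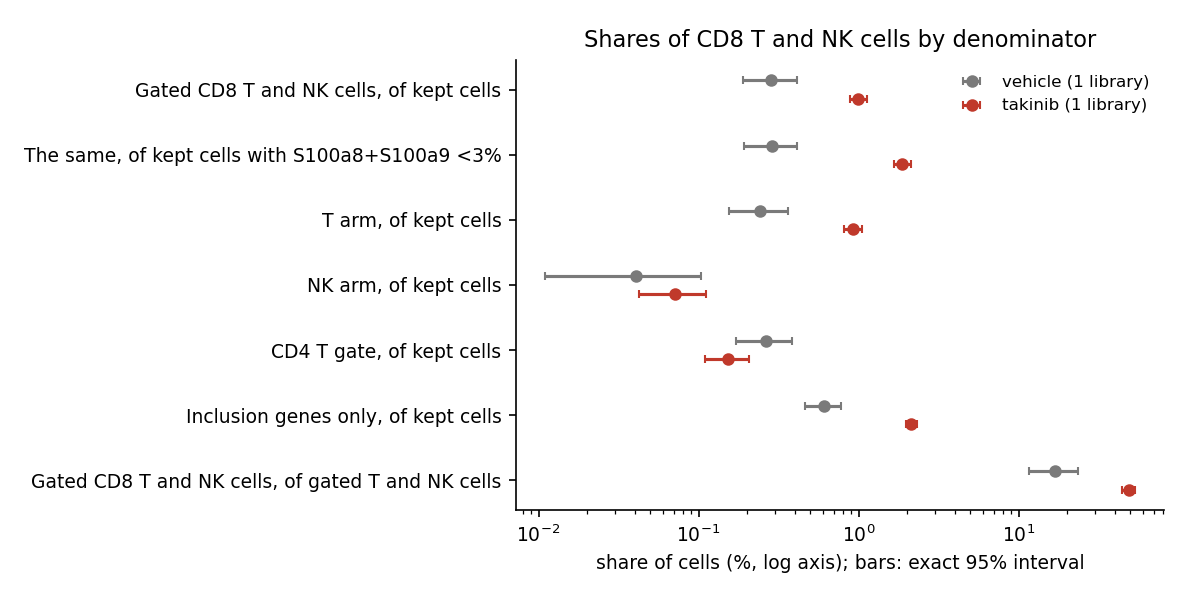
Share of cells in each library, on a log axis, for the gated CD8 T and NK cells under 3 denominators, for their T and NK arms, for CD4 T cells and for cells meeting the inclusion genes alone; bars are exact 95% binomial intervals and n is 1 library per group. The takinib share of the gated cells sits above the vehicle share with each denominator (0.997% against 0.284% of kept cells), while the NK arm intervals overlap.

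The NK arm of the takinib library carried the granule genes. These 19 cells held 192 UMIs of Gzma (granzyme A), in 12 cells, with a lowest value of 0, a median of 5 and a highest of 51 per cell. The 248 T arm cells held 88 Gzma UMIs in 4 cells, with 30, 12, 45 and 1 UMIs. Prf1 was found in 8 NK arm cells and 10 T arm cells. Ccl5, a chemokine of effector and memory lymphocytes, was found in 18 of 19 NK arm cells with a median of 18 UMIs, and in 90 of 248 T arm cells, against 13.7% of macrophages. Ifng, encoding interferon gamma, was found in 4 NK arm cells and 1 T arm cell. Ly49 receptors other than Klra2 and Klra17, which macrophages and neutrophils also carry, were found in 12 of 19 NK arm cells, 4 of 248 T arm cells and 1.07% of macrophages. Klra7 (23 UMIs) and Klra4 (18 UMIs) gave most of them. T cell receptor UMIs were not absent from the arm: 10 of its cells had 0, 2 had 1, 6 had 2 or more without Cd8, and 1 met both criteria.

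The 4 vehicle NK arm cells looked different, within what 4 cells can show. They held 2, 2, 2 and 3 UMIs of the NK genes in the rule and no UMI of any granzyme or of Prf1, which at 0 of 4 cells allows a share of up to 60.2%. Their Ccl5 values were 1, 16, 0 and 3 UMIs. Lef1, Ccr7 and Tcf7 summed to 0, 3, 2 and 1 UMIs, and 3 of the 4 held T cell receptor UMIs.

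Between the arms of the takinib library, levels were compared as CPM (the UMIs of a gene scaled to a common total over the cells, as parts per 1e+06), over the 226 cells with under 2% of UMIs from 65 marker genes of other lineages (209 T arm, 17 NK arm). Of 2893 genes tested, 17.2% were higher in the NK arm past 2-fold and 13.7% lower, with a median log2 ratio over all tested genes of 0.25. The arms were defined by T and NK genes, so genes bound to those identities had to differ, and these values are a description. Of 10 cytotoxic effector genes tested, 5 were higher in the NK arm past 2-fold and 0 lower, with a median log2 ratio of 1.15. Gzma had 3380 CPM in the NK arm and 192 in the T arm (log2 ratio 4.07), Gzmb 440 and 44.2 (3.05), Nkg7 1743 and 532 (1.69). Xcl1, a chemokine that draws cross-presenting dendritic cells, had 581 and 6.63 CPM (5.15), from 33 UMIs in 5 NK arm cells and 3 in the T arm. Il2rb, the shared IL-2 and IL-15 receptor chain, had 739 and 161 CPM (2.13). All 12 naive and memory genes tested were lower in the NK arm, 9 of them past 2-fold, with a median of -1.45; Il7r, the IL-7 receptor, had 88.0 and 619 CPM. Of 7 proliferation genes, 6 were higher past 2-fold (median 2.18), with Mki67 at 20 UMIs in 3 NK arm cells. The deepest 4 cells gave 54.5% of the UMIs of the 19 NK arm cells, and erythroid and epithelial genes were among the highest ratios (Wfdc2, 77 UMIs in 1 cell), so the NK profile also rests on few cells. Neutrophil markers were lower in the NK arm in 5 of 5 genes tested (median -2.80); their part in the other differences was not tested.

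Promoter sequence is shown for 4 of these genes because the 2 motifs marked in them bind factor families with known roles in cytotoxic lymphocytes. The windows are the 250 bases before the RefSeq transcript start on GRCm38.p6, printed 5′ to 3′ on the strand of the gene. Capitals mark matches on either strand to the RUNX motif TGTGGT (reverse complement ACCACA) and the T-box motif GGTGTGA (reverse complement TCACACC). The genes lie on chr13 (Gzma, chr13:113100982-113101231, minus strand), chr14 (Gzmb, chr14:56262335-56262584, minus strand), chr7 (Nkg7, chr7:43436888-43437137, plus strand) and chr1 (Xcl1, chr1:164935523-164935772, minus strand).
Gzma: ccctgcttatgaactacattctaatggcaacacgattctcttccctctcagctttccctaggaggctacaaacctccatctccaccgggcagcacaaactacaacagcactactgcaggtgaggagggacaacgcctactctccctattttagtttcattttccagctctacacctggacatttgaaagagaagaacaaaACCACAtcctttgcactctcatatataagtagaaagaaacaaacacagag
Gzmb: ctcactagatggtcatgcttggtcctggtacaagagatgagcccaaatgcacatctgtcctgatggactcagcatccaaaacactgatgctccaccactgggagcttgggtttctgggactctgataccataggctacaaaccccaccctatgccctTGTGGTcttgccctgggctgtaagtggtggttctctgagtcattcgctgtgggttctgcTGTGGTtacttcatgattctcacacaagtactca
Nkg7: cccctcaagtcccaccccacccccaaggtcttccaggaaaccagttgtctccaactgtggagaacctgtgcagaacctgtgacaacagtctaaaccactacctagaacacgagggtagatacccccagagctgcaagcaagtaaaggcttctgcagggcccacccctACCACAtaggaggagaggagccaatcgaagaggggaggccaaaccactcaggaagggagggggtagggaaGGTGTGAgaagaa
Xcl1: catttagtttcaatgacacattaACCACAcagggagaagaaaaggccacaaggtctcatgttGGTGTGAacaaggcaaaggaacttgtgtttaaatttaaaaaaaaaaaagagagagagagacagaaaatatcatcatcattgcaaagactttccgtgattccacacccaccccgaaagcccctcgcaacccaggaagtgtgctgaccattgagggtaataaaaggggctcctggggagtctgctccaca
The RUNX motif was in the windows of 14 of 21 matched genes of the cytotoxic effector list, or 58.3% of 24 promoters, against 14.0% of all 32851 promoters in the table and 0 of 11 matched genes of the naive and memory list. The T-box motif was in 16.7% of the 24 promoters and 3.33% of all. The motifs and the printed genes were picked after their values were seen. A match is a stretch of letters and not evidence of binding.

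The CD8 T cells of the takinib library mostly carried transcripts of resting cells. Lef1, Ccr7 or Tcf7 was found in 192 of 248 cells (77.4%, 71.7 to 82.5%), with a lowest sum of 0, a median of 1 and a highest of 7 UMIs. With every cell thinned to 1000 UMIs the share was 56.5%, against 24.4% of CD4 T cells, 0.390% of macrophages and 0.390% of neutrophils. Without thinning, macrophages were at 2.17% and neutrophils, at a median of 2235 UMIs, at 1.19%. Lef1, which neither myeloid type carried above 0.5% of cells, was found in 101 of 248 cells. Il7r was found in 161 cells, Tcf7 in 125 and Ccr7 in 65. In vehicle 12 of 24 cells (50.0%, 29.1 to 70.9%) held the set, or 37.5% after thinning.

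Ccl5 divided the same cells. Among the 90 takinib CD8 T cells with Ccl5 the median was 7 UMIs and the highest 184. Of these, 65 also held naive-type transcripts (Lef1, Ccr7 or Tcf7) and 25 did not; 127 cells held naive-type transcripts without Ccl5 and 31 held neither. Even at 10 or more Ccl5 UMIs, 24 of 35 cells held naive-type transcripts, so both kinds of transcript were found in the same cells. In vehicle 1 cell held both, 6 held Ccl5 alone, 11 naive-type transcripts alone and 6 neither.

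**Figure D3:**
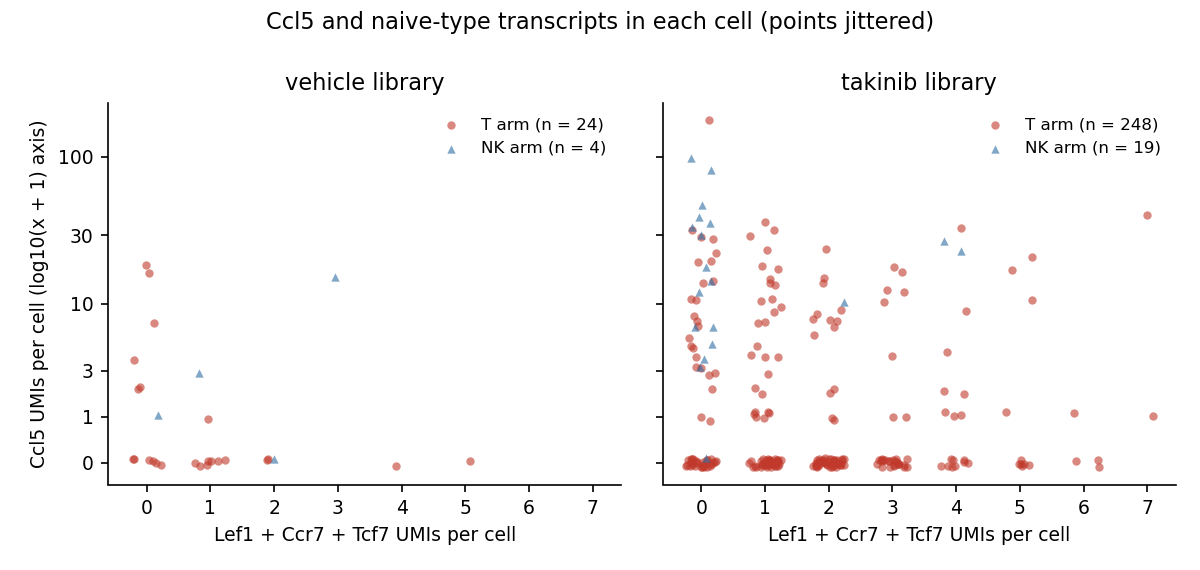
Each point is 1 cell, with the summed UMIs of Lef1, Ccr7 and Tcf7 on the x axis and Ccl5 UMIs on a log10(x + 1) y axis, jittered; circles are the T arm, triangles the NK arm. In the takinib panel T arm cells with Ccl5 spread over the whole x range (65 of 90 hold 1 or more naive-type UMI), and 3 of 19 NK arm cells lie above 0.

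Against takinib CD8 T cells without Ccl5 (134 cells), those with it (75 cells, both under the 2% limit) were higher past 2-fold in Gzma (455 against 0 CPM, 87 UMIs in 3 cells), Gzmb (105 against 0 CPM, 20 UMIs in 6 cells), Il2rb (298 against 61.2 CPM, log2 ratio 2.12), Ly6c2, a surface protein of memory CD8 T cells (1644 against 409 CPM, 1.98), and the interleukin 18 receptor genes Il18r1 (99.5 against 22.9 CPM, 1.73) and Il18rap (78.5 against 22.9 CPM, 1.43). Genes of macrophages were among the 15 highest too: Fn1 (550 against 157 CPM), Arg1 (639 against 210) and Tgm2 (99.5 against 19.1); their part was not tested. Of 2588 genes tested, 2.59% were higher past 2-fold and 3.25% lower. The naive and memory genes were lower in 10 of 12 tested, with 1 past 2-fold and a median of -0.39. Genes lower with Ccl5 included Ccl9, Inhba, Ccl3 and Cxcl2, and 6 of 6 neutrophil markers tested were lower (median -0.54), 1 of them past 2-fold; the part of neutrophil RNA was not tested. Median depth was 2220 UMIs with Ccl5 and 1660 without.

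Checkpoint receptor transcripts were few in CD8 T cells. Pdcd1 (PD-1), Lag3, Havcr2, Ctla4 or Tigit was found in 17 of 248 takinib CD8 T cells (6.85%, 4.04 to 10.7%), against 16 of 41 CD4 T cells (39.0%) and 15.6% of macrophages, where Havcr2 gave most of it. In vehicle the set was found in 3 of 24 CD8 T cells (12.5%, 2.66 to 32.4%). Pdcd1 alone was found in 2 of 248 takinib and 3 of 24 vehicle CD8 T cells. Cycling genes (Mki67, Top2a, Birc5, Cdk1, Ccnb2, Ube2c) were found in 15 of 248 CD8 T cells, 5 of 19 NK arm cells and 11 of 41 CD4 T cells of takinib. In vehicle they were found in 3 of 24 CD8 T cells (12.5%, 2.66 to 32.4%), against 6.05% in takinib (3.42 to 9.78%). Itgae, which marks tissue-resident cells, was found in 5 takinib CD8 T cells, and Cxcr6 in 6.

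The T cell receptor segments were spread out. Variable beta (Trbv) segments were found in 125 of 248 takinib CD8 T cells, 118 of them with 1 segment, and 21 of 35 segments in the gene table appeared. The most frequent, Trbv29, was in 15 of the 118 cells (12.7%, 7.29 to 20.1%), with Trbv12-2, Trbv1 and Trbv3 at 10 each. 7 cells held 2 or more Trbv segments. In vehicle 10 of 24 cells held 11 segments. The depth allows no reading of clones, since these are gene counts and not receptor sequences.

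The Cd8 chains differed in proportion between the libraries. Cd8b1, the beta chain of the conventional co-receptor, gave 22 of 53 Cd8 UMIs in vehicle CD8 T cells (41.5%, 28.1 to 55.9%) and 411 of 614 in takinib (66.9%, 63.1 to 70.7%). Cells with Cd8a alone were 11 of 24 in vehicle and 37 of 248 in takinib. Without the exclusions the Cd8b1 shares were 51.8% and 66.9%. These genes are part of the rule, so the values are a description.

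Compared with CD4 T cells of the same library (both under the 2% limit), takinib CD8 T cells were higher past 2-fold in 5.58% of 3243 genes tested and lower in 17.8%, around a median of -0.40. Without the limit the shares were 5.57% and 14.4% of 3503 genes. The comparison is between gates, and Cd4 and Cd8 genes were used to set them. Ccl5 (2083 against 66.9 CPM), Nkg7 (532 against 22.3), Klrd1, which encodes CD94 of the NKG2 receptors (219 against 7.44), and Txk, a T cell kinase (192 against 14.9), were among the highest. All 12 naive and memory genes tested were higher in CD8 T cells, 7 of them past 2-fold (median 1.16), among them Tcf7 (400 against 96.7) and Lef1 (270 against 74.4). Lower were 13 of 13 proliferation genes, all past 2-fold (median -2.24), 5 of 5 checkpoint genes past 2-fold (median -2.72), with Ctla4 at 6.63 against 253 CPM, and 12 of 12 NF-kB target genes, 4 past 2-fold (median -0.71). The 4 deepest of the 41 CD4 T cells gave 45.0% of their UMIs.

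Between takinib and vehicle, 3476 genes could be compared over all gated cells: those with 20 or more UMIs in both libraries together and 50 CPM in either. With 10 CPM added to each value, 352 of them (10.1%) were higher in takinib past 2-fold and 365 (10.5%) lower, and the median log2 ratio was -0.21, the level against which the values here should be read. Scaled to a median of 0, the counts were 469 higher and 220 lower. 1 UMI is worth 13.4 CPM in vehicle and 1.41 in takinib, so small vehicle counts give wide intervals. A value of 0 in vehicle is set against a floor of 3 UMIs over its 28 cells, 40.1 CPM.

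The immediate-early AP-1 genes were higher in takinib in 14 of 16 tested, 9 past 2-fold and 0 lower past 2-fold, and a median log2 ratio of 1.10. Fos, a partner of Jun in the AP-1 dimer, had 0 UMIs in vehicle and 236 in takinib (333 CPM, in 91 cells), at least 8.29-fold higher by the floor, with an exact interval from 6.69. Junb had 11 and 609 UMIs (147 and 858 CPM, 5.84-fold, 3.24 to 11.8), and Dusp1, a MAP kinase phosphatase, 2 and 325 UMIs (26.7 and 458 CPM, 17.1-fold, 4.70 to 142). Jund had 34 and 413 UMIs (455 and 582 CPM, 1.28-fold, 0.902 to 1.87) and Jun 13 and 171 (174 and 241 CPM, 1.39-fold, 0.790 to 2.66), intervals that include equal levels. Zfp36, which destabilises cytokine mRNA, was 7.98-fold higher (2.70 to 39.0). Over cells under the 2% limit 12 of 13 genes were higher and the median was 1.64, with Fos at a log2 ratio of 4.84, Junb at 1.86 and Jun at -0.21. Takinib neutrophils held these genes above the level in the gated cells, with Fos at 773, Junb at 2447 and Dusp1 at 2108 CPM. Among the 6 takinib CD8 T cells with no S100a8 or S100a9 UMI, Junb had 14 UMIs (1280 CPM) and Fos 1, against 10 (162 CPM) and 0 in 21 such vehicle cells. Jun had 1 UMI (91.4 CPM) against 13 (210 CPM), and Dusp1 1 (91.4 CPM) against 2 (32.3 CPM). These 6 cells still held transcripts that takinib neutrophils carry. Saa3 had 6 UMIs (548 CPM), Cxcl2 4 (366 CPM) and Il1b 3 (274 CPM), against 0, 0 and 1 in the vehicle cells.

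NF-kB target genes were higher in 7 of 11 tested, 5 past 2-fold and 0 lower past 2-fold, with a median of 0.63. Under the 2% limit 3 of 9 were higher and 2 lower past 2-fold, with a median of 0.28. In the T arm alone 8 of 11 were higher, 7 past 2-fold and 0 lower past 2-fold, with a median of 1.76. Over the alternatives run the median ranged from 0.28 to 2.93. Nfkbia, the feedback inhibitor of NF-kB, had 12 and 391 UMIs (160 and 551 CPM, 3.44-fold, 1.94 to 6.71), and Tnfaip3 (A20) 4 and 136 (53.5 and 192 CPM, 3.58-fold, 1.37 to 13.3). Takinib neutrophils held Nfkbia at 2496 CPM. In the CD8 T cells without any S100a8 or S100a9 UMI Nfkbia had 9 UMIs in 21 vehicle cells (146 CPM) and 1 in 6 takinib cells (91.4 CPM), and Tnfaip3 had 2 (32.3 CPM) and 4 (366 CPM). Of the TAK1 and IKK genes 4 of 7 tested were higher, 2 past 2-fold (median 0.21, and -0.64 over cells of at most 6000 UMIs). Map3k7 itself, the target of takinib, was below the limits for comparison, with UMIs in 2 vehicle and 18 takinib CD8 T cells.

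Naive and memory genes were higher in 9 of 12 tested, 4 past 2-fold and 1 lower past 2-fold (median 0.55, 0.71 under the 2% limit, 0.19 over cells of at most 6000 UMIs and 0.33 without the deepest vehicle cell). Klf2, a factor of quiescent, recirculating T cells, had 9 and 419 UMIs (120 and 591 CPM, 4.91-fold, 2.56 to 10.8), in 7 of 28 and 179 of 267 cells. Tcf7 had 9 and 214 UMIs (120 and 302 CPM, 2.51-fold, 1.30 to 5.56) and Il7r 18 and 346 (241 and 488 CPM, 2.03-fold, 1.26 to 3.46). Lef1, with 15 and 151 UMIs (201 and 213 CPM, 1.06-fold, 0.623 to 1.94), and Satb1, with 28 and 197 (374 and 278 CPM, 0.742-fold, 0.498 to 1.15), were not distinguishable. Neutrophil levels were 1.84 CPM for Tcf7 and 11.2 for Il7r, but 1195 for Klf2. In the 6 takinib CD8 T cells with no S100a8 or S100a9 UMI, Tcf7 had 11 UMIs, Il7r 15 and Klf2 10, against 5, 13 and 7 in the 21 such vehicle cells.

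Cytotoxic effector genes were higher in 6 of 9 tested, 3 past 2-fold and 0 lower past 2-fold (median 0.28). Over cells of at most 6000 UMIs, which leaves 24 vehicle and 251 takinib cells, this median was -0.17, and without the deepest vehicle cell 0.05. Nkg7 had 35 and 378 UMIs (468 and 533 CPM, 1.14-fold, 0.804 to 1.66) and Hcst, the DAP10 adaptor, 30 and 346 (401 and 488 CPM, 1.22-fold, 0.836 to 1.83), and neither was distinguishable. Gzma had 1 and 280 UMIs (29.5-fold, 5.26 to 1170), but the 280 lay in 16 cells, 12 of them in the NK arm. Gzmb had 2 and 46 UMIs (2.42-fold, 0.634 to 20.6). In the T arm alone 5 of 8 cytotoxic effector genes tested were higher, 2 past 2-fold, and 1 was lower past 2-fold. A UMI of any granzyme or of Prf1 was found in 5 of 28 vehicle (17.9%) and 33 of 267 takinib cells (12.4%). In the T arm these were 5 of 24 (20.8%, 7.13 to 42.2%) and 19 of 248 (7.66%, 4.68 to 11.7%), with intervals that overlap. After thinning the T arm shares were 8.33% and 3.63%. Detection of these genes in the T arm was thus not higher in takinib. Among 6 cytokine and chemokine genes 5 were higher past 2-fold (median 2.19). Ccl5 had 71 and 1565 UMIs (949 and 2206 CPM, 2.32-fold, 1.83 to 2.99), in 10 of 28 and 108 of 267 cells. Ccl3 had 0 and 544 UMIs, at least 19.1-fold higher by the floor, with an exact interval from 15.5, but in 72 cells, and takinib neutrophils held it at 5828 CPM against 767 in the gated cells. Activation marker Cd69 was 3.50-fold higher (1.47 to 10.9). Neutrophils held Ccl5 at 41.4 and Cd69 at 35.2 CPM. Of 15 MHC class I presentation genes 6 were higher and 9 lower with none past 2-fold (median -0.15), B2m at 1497 and 1699 CPM.

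Heat shock genes were lower in 10 of 11 tested, 7 past 2-fold, with a median of -1.12, which was -0.24 with every barcode thinned to 1000 UMIs before the gate. Hsp90ab1 had 182 and 966 UMIs (2433 and 1362 CPM, 0.560-fold, 0.477 to 0.659) and Hsp90aa1 52 and 205 (695 and 289 CPM, 0.416-fold, 0.305 to 0.575), while Hspa8 was 1.08-fold (0.822 to 1.43). In the vehicle T arm 4 cells held 118 of 167 Hsp90ab1 UMIs (70.7%), and without the deepest vehicle cell the log2 ratio of Hsp90ab1 was -0.38 in place of -0.83. Proliferation genes were lower in 10 of 12, 5 past 2-fold (median -0.88), but this rested on 1 vehicle cell. That cell, the deepest at 11216 UMIs, held 27 of the 43 Tuba1b and 27 of the 59 H2afz UMIs of the vehicle cells. With that cell alone left out the proliferation median was 0.36. It was 0.38 without the calls of a doublet caller (that cell and 4 takinib cells) and 0.26 over cells of at most 6000 UMIs. Medians per cell differed less, at 1154 CPM of the summed list in vehicle and 1251 in takinib.

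**Figure D4:**
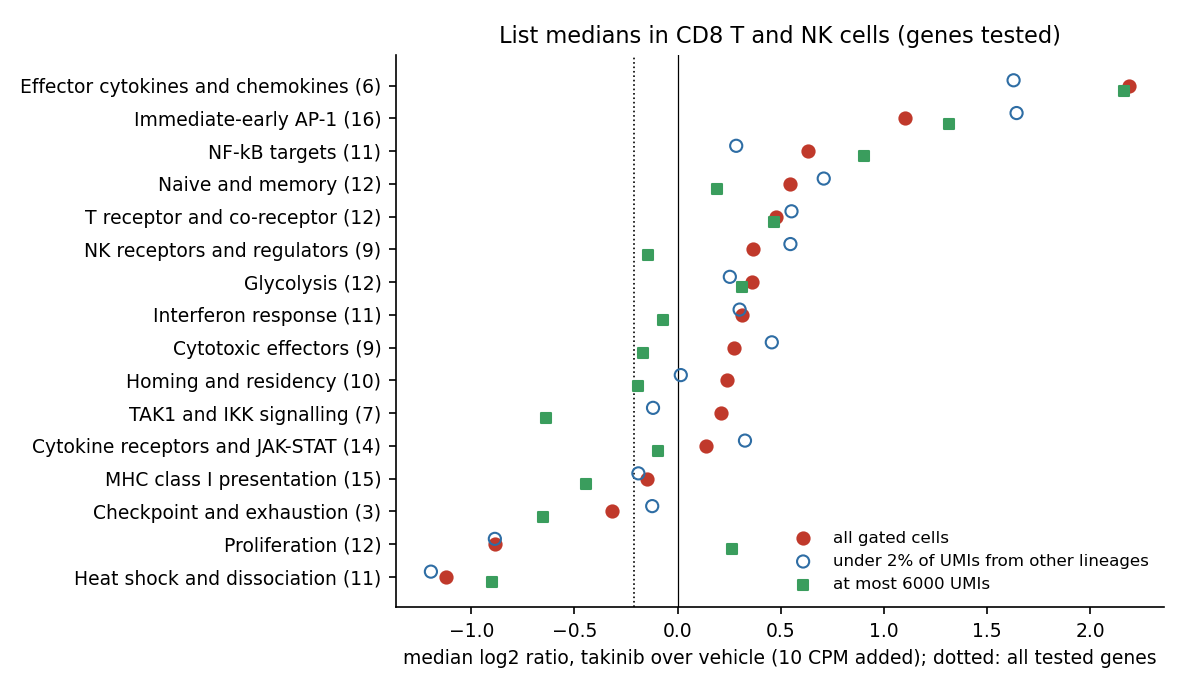
Median log2 ratio of takinib over vehicle for each list (genes tested in brackets), over all gated cells (filled circles), over cells with under 2% of UMIs from other lineages (open circles) and over cells of at most 6000 UMIs (squares), each with its own tested genes; the dotted line is the median of all tested genes, -0.21. AP-1 and naive and memory medians stay above 0 and heat shock below it in all 3, and the proliferation median moves from -0.88 to 0.26.

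Transcripts of other cells were measured in the same barcodes. At least 2% of UMIs came from markers of other lineages in 2 of 28 vehicle cells (16.8% of their summed UMIs) and 41 of 267 takinib cells (28.2%), with medians over all gated cells of 0.440% and 0.583% and highest values of 4.30% and 46.4%. Neutrophil markers summed to 134 CPM in vehicle, with 4 of 12 genes detected, and 7955 CPM in takinib, with 12 of 12; cells ranged from 0 to 935 CPM (median 0) and from 0 to 42337 CPM (median 2872). Erythroid markers summed to 13.4 and 2384 CPM, and 1 takinib cell held 1075 of 1246 Hbb-bs UMIs. Epithelial Tff2 was held mostly by 1 takinib cell with 1801 UMIs, and the smooth muscle gene Tagln by 1 vehicle cell with 111 of 113.

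The genes at the extremes were largely of these kinds. The highest ratio was that of Saa3, an acute-phase gene (0 and 2537 UMIs, at least 89.2-fold higher by the floor, with an exact interval from 72.5), followed by Cxcl2, Ccl3, Slpi, Wfdc21 and Il1b, and the lowest were Tagln, Acta2, Sparcl1 and Mustn1. Under the 2% limit 11.2% of 2911 genes were higher past 2-fold and 10.3% lower. Saa3 (2585 CPM in the gated cells, 15197 in takinib neutrophils) and Cxcl2 (1509 and 24767) stayed at the top. Of the 15 highest, Gzma (548 CPM, 0.474 in neutrophils) and Taf1d, a subunit of an RNA polymerase I factor (143 and 35.5), were above their neutrophil level, and Socs3, a feedback inhibitor of cytokine receptors (165 and 439), was below it. Socs3 UMIs were in 82 T arm cells and 0 NK arm cells. How much of these differences came from RNA of other cells was not tested.

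**Figure D5:**
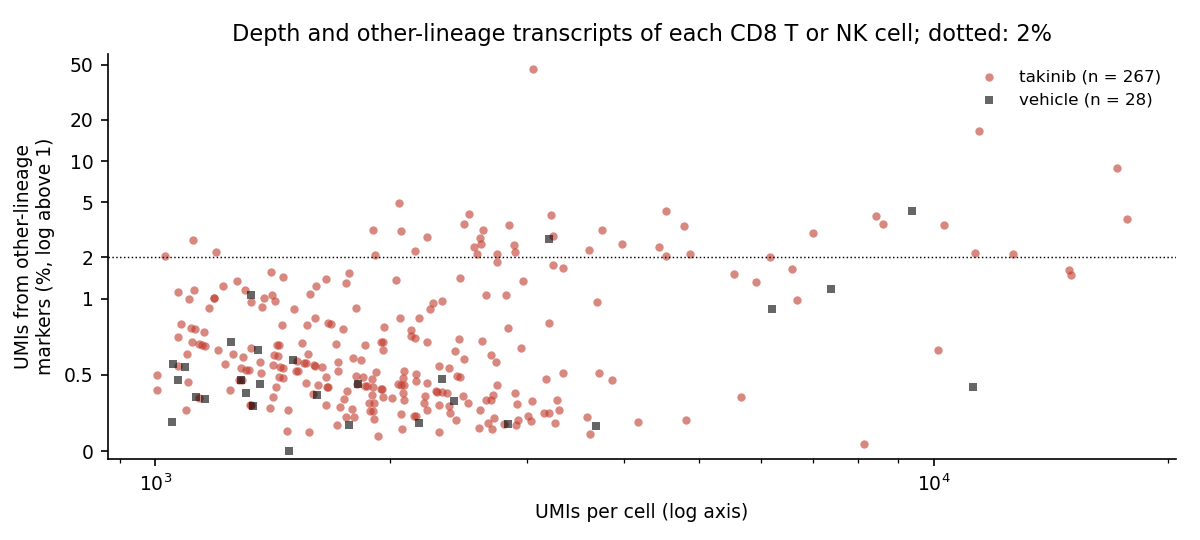
UMIs per cell (log axis) against the percentage of UMIs from 65 marker genes of other lineages (log above 1) for each gated cell; circles are takinib, squares vehicle, and the dotted line is the 2% limit. Most cells lie under 1%, 41 of 267 takinib and 2 of 28 vehicle cells are at or above the line, and 4 vehicle cells stand apart at over 6000 UMIs.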

How the data were processed

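Single-cell RNA of dissociated tumours was counted in 2 libraries with 10x Genomics barcodes. The authors deposited UMI counts per gene and barcode. The file headers name Cell Ranger 4 (vehicle) and Cell Ranger 6.1.1 (takinib), while the submitters' processing notes name mm10, Cell Ranger 2.1.1, STAR 2.0.4b, bcl2fastq, Subread and featureCounts 1.45; both tables list 32285 genes. The deposited takinib table held no barcode under 500 UMIs, so free RNA could not be measured there. No doublet caller was applied in the main analysis.

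UMIs were summed over gated cells per library, divided by the total to give CPM, and compared as log2 ratios with 10 CPM added. Shares have exact Clopper-Pearson intervals, folds exact conditional binomial ones. Cells were not treated as replicates and no p-value was computed. Detection shares were also taken after thinning to 1000 UMIs. Members and gene lists were chosen with earlier results of these data known; the 2% and 6000 UMI limits and leaving out the deepest vehicle cell were chosen after seeing these values. Named genes were tested genes of the lists, the 15 highest and 15 lowest ratios (mitochondrial, ribosomal, haemoglobin, immunoglobulin, predicted and sex-linked genes and those of the rule left out) and defining markers; Hbb-bs is named for 1 cell, after its values were seen. Python 3.11.15, numpy 2.4.6, scipy 1.17.1, pandas 2.3.3 and scanpy 1.11.5 were used, and the comparison was tested on simulated data. Gene positions are of GRCm38. Some lymphocyte genes are not reported here and were left out of the lists.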

Additional observations from a re-analysis of the deposited data

How the results depend on the processing

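The log2 ratio of shares was 1.81 and ranged from 1.52 to 3.09 over its alternatives; it moved beyond its interval with a mitochondrial limit of 10% (3.09, with 7 vehicle and 263 takinib cells left) and with S100a8 and S100a9 cells out of the denominator (2.71). The NK share of vehicle cells was 0% under the 10% limit and among vehicle cells with Xist and no Y-linked UMI (3 cells), and that of takinib 11.4% at 2000 UMIs and 1000 genes. Genes higher past 2-fold numbered 352, and 671 at 2000 UMIs, 554 at the 10% limit, 170 after thinning before the gate, 170 with 50 CPM added and 1566 without a filter. Genes lower numbered 365, and 668 at the 10% limit, 84 after thinning, 108 with 50 CPM added, 220 scaled to a median of 0, 90 at 50 counts and 1845 without a filter. The proliferation median was 0.38 without Scrublet calls and 0.36 without the deepest vehicle cell, and the heat shock median -0.24 after thinning. H2-K1 reversed at 2000 UMIs (log2 ratio 0.33) and at the 10% limit (0.42), and H2-D1 after thinning (-0.62); the cause was not tested. The AP-1 median stayed between 0.68 and 2.56, and that of naive and memory genes between 0.19 and 1.03, over all alternatives run. Scrublet's own threshold marked 0.00373% of takinib cells, so the highest 6% of scores were removed there. Gene values for vehicle cells with Xist were left out because 3 cells remained. No paired analysis was possible because each group has 1 library. Depth limits the vehicle values, with 74792 UMIs in 28 cells.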
